A study of Rattus norvegicus with 6 samples.

Results

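S100 proteins and annexins are calcium-regulated partners at cell membranes, and 9 of their genes (S100a4, S100a6, S100a10, S100a11, Anxa1, Anxa2, Anxa4, Anxa5 and Anxa6) were followed by symbol among the 19825 genes of the count table. Messenger RNA had been sequenced from rat H9C2 cells, a line derived from embryonic heart, to ask which messages change when the RNA-binding protein PUM2 is reduced. In 3 libraries (siPUM2 1, 2 and 3) PUM2 was targeted by a transfected small interfering RNA, and 3 libraries (NC 1, 2 and 3) are labelled as an inhibition control carrying an empty vector. All 6 came from the same cell line and differ in no other label. Whether the control cells also received a non-targeting small interfering RNA is not stated, nor is it stated that replicates were grown as separate cultures. All p-values therefore compare these samples by their own spread, which may be technical in part or whole.

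S100 proteins are small EF-hand proteins that bind calcium as dimers, turn out a hydrophobic surface and dock on target proteins. Annexins carry repeated calcium-binding folds that attach them to acidic phospholipids, and several are known to gather at wounds of the muscle cell membrane. The families meet in complexes. S100A10 binds annexin A2 and S100A11 binds annexin A1, each through the tail at the start of the annexin.

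Library depth lay between 27704702 counts (siPUM2 2) and 30579237 counts (NC 3), and levels below are CPM, counts scaled by TMM factors to a common library size, of which a single count made 0.0326 to 0.0360. Pum2 stood at 127, 125 and 120 CPM in siPUM2 1, 2 and 3, against 223, 228 and 225 CPM in NC 1, 2 and 3. The label calls the cells cardiomyocytes, but of 10 cardiomyocyte markers with a row, Myh6, Myh7, Myl2, Myl7, Actc1, Tnni3 and Ryr2 were each under 1 CPM on average. The markers above that were Tnnt2, Nkx2-5 and Nppb, and the list's sum, mostly Tnnt2, was 457 to 513 CPM in siPUM2 and 296 to 353 CPM in NC. Of 5 skeletal myoblast markers tested, Cdh15 (log2 fold change 0.20) and Des (0.17) rose, Myog (-1.12) and Myh3 (-0.93) fell, and Myod1, at 84.1 CPM in siPUM2 and 81.3 CPM in NC, was not called; the list's sum was 359 to 384 CPM in siPUM2 and 344 to 348 CPM in NC. On the myoblast list, Chrna1 was under 1 CPM on average and was not tested, and Myf5 and Pax7 had no row under those symbols. In bulk RNA, fewer cells of a type and less RNA per cell cannot be told apart.

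The 9 genes were among the more abundant messages of these cells and moved by small amounts in both directions when PUM2 was reduced. S100a4 (log2 fold change -0.18), Anxa2 (-0.09) and Anxa4 (-0.09) fell, Anxa6 (0.14), Anxa1 (0.10) and S100a6 (0.08) rose, and S100a10, S100a11 and Anxa5 did not pass the test. The test was edgeR's quasi-likelihood test with p-values adjusted by Benjamini and Hochberg over the 12985 genes that passed a filter on low counts, and calls were made below an adjusted p of 0.05. All 9 passed that filter. The test draws each gene's spread toward that of other genes, so its p-values and SE do not rest on a gene's own spread alone. Across all genes tested 28.4% were called, 15.1% higher and 13.3% lower in siPUM2. Abundant genes were called more often: among the 712 genes with a mean of at least 243 CPM, the level of the lowest of the 9, 60.7% were called (24% higher and 36.7% lower), so 6 calls among 9 genes were near that share. The median log2 fold change was 0.04 over the 9 genes and 0.001 over all genes tested, and the median absolute log2 fold change was 0.09 over the 9, 0.09 over the 712 and 0.11 over all.

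**Figure D1:**
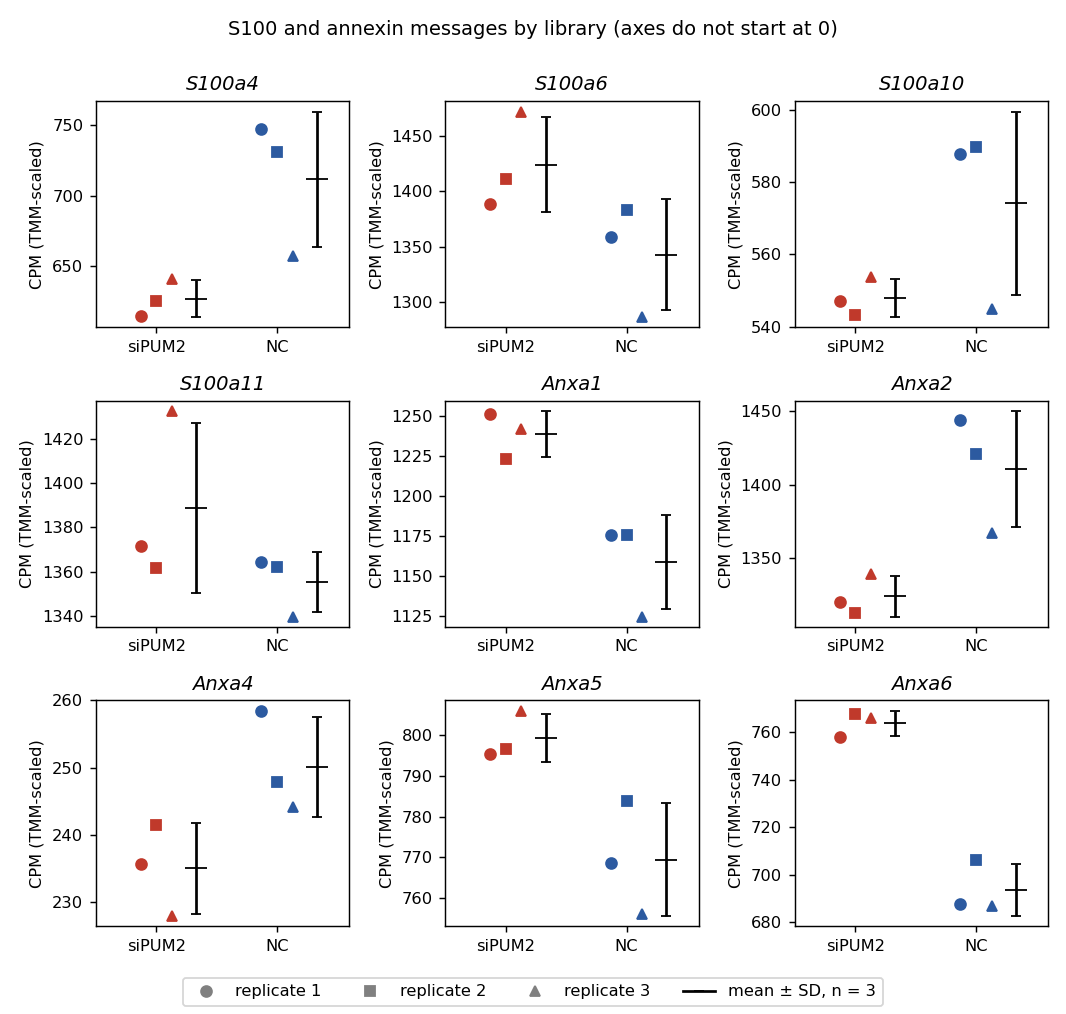
Level of each of the 9 messages in CPM (vertical axis, which does not start at 0) in every siPUM2 and NC library; symbols mark the replicate number and black bars the mean ± SD of 3 libraries. NC 3 is the lowest NC library in all 9 panels, and the groups overlap only for S100a10 and S100a11.

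Levels per length, as the FPKM values that the authors deposited, put the small S100 messages at the top. S100a6 averaged 2085 ± 58.5 FPKM in siPUM2 and 1971 ± 70.1 FPKM in NC (SD, n = 3 each), rank 19 of 11988 protein-coding genes tested by the mean of all 6 libraries. S100a11 followed with 1785 ± 45.9 FPKM in siPUM2 and 1747 ± 14.6 FPKM in NC, rank 26. Together the 9 genes took 0.830% to 0.844% of all counts in siPUM2 and 0.803% to 0.838% in NC.

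Below these, a close group of messages lay between 682 and 912 FPKM in all libraries. In siPUM2 the order was S100a10 (839 to 853 FPKM), Anxa2 (791 to 805), S100a4 (749 to 778) and Anxa1 (738 to 756), with the last pair overlapping. In NC the ranges of S100a10 (845 to 912 FPKM), S100a4 (803 to 911) and Anxa2 (827 to 871) overlapped, and Anxa1 (682 to 711) lay below all 3. Anxa5 (449 to 453 FPKM in siPUM2, 428 to 442 in NC), Anxa6 (248 to 251 and 225 to 231) and Anxa4 (88.7 to 94.3 and 95.7 to 101) were each clear of their neighbours in both groups. The S100 messages have lengths of 647 to 820 bases, as implied by the ratio of counts to FPKM, and the levels of such short messages rest most on the authors' choice of length.

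**Figure D2:**
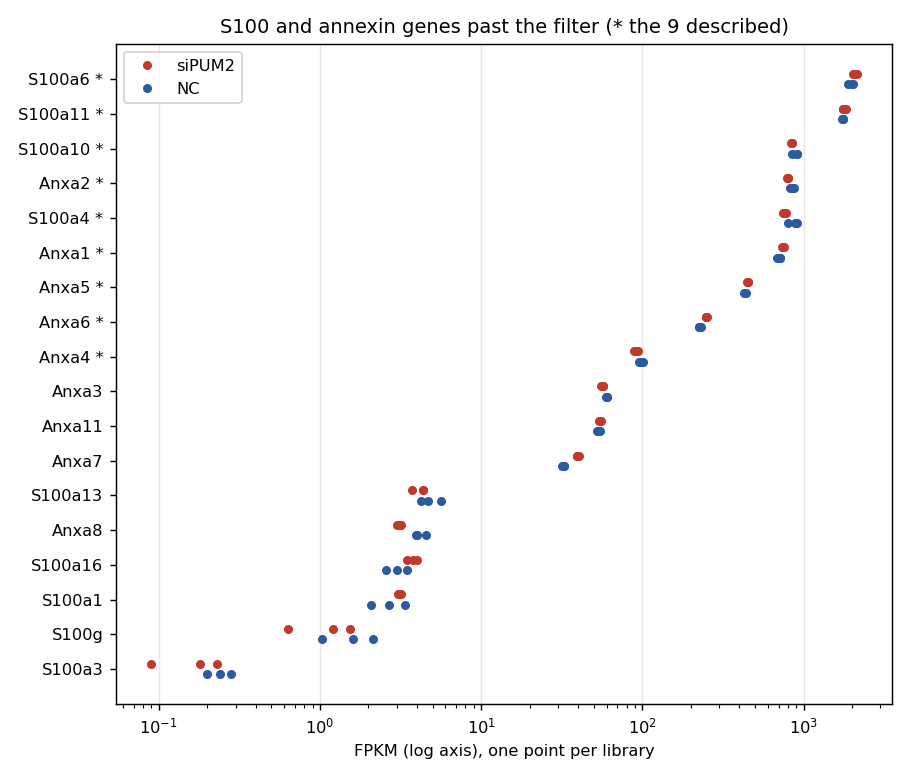
Level per length in FPKM (log axis), one point per library, for the 18 S100 and annexin genes that passed the filter, in order of their mean. The 9 genes described (marked *) all lie at 88.7 FPKM or more, and the remaining annexin and S100 genes at 60.5 FPKM or less.

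S100a4 encodes metastasin, also called fibroblast-specific protein, which binds nonmuscle myosin IIA and loosens its filaments. It stood at 615, 625 and 641 CPM in siPUM2 1, 2 and 3, against 747, 731 and 657 CPM in NC 1, 2 and 3. All siPUM2 libraries were below all NC libraries, but NC 3 was closer to siPUM2 3 than to the other NC libraries. Its mean fell to 627 ± 13.2 CPM in siPUM2, against 712 ± 48.1 CPM in NC (SD, n = 3), a change of -11.9%, with a log2 fold change of -0.18 ± 0.0327 (SE) (adjusted p = 8.16e-05, edgeR). Leaving out NC 3 gave a log2 fold change of -0.24. With all libraries, DESeq2 gave S100a4 a log2 fold change of -0.19 ± 0.0578 (SE), a wider error, with an adjusted p of 0.00811.

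S100a6, or calcyclin, a binding partner of CACYBP and of several annexins, went the other way. It had 1389, 1411 and 1472 CPM in siPUM2 1, 2 and 3, against 1359, 1383 and 1287 CPM in NC 1, 2 and 3. The groups did not overlap, but siPUM2 1 and NC 2 were nearly level. The mean rose to 1424 ± 42.9 CPM in siPUM2, against 1343 ± 50.04 CPM in NC (SD, n = 3), a log2 fold change of 0.08 ± 0.0278 (SE; adjusted p = 0.0219, edgeR). This call rested on single libraries: without NC 3 the log2 fold change was 0.05 (adjusted p = 0.167, edgeR) and without siPUM2 3 it was 0.06 (adjusted p = 0.0930, edgeR).

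S100a4 and S100a6 are near neighbours on chromosome 2, with S100a5 between them in RefSeq's order of protein-coding genes on the assembly GRCr8. S100a5 was almost silent here, at 2 to 14 counts per library. The log2 ratio of S100a6 to S100a4 counts, which needs no scaling between libraries, was 1.18, 1.18 and 1.20 in siPUM2 1, 2 and 3, against 0.86, 0.92 and 0.97 in NC 1, 2 and 3. The siPUM2 ratios were nearly the same and all above the NC ratios. The ratio was higher by 0.27 ± 0.0319 (SE) in siPUM2, and a two-sided exact permutation test gave p = 0.1, the smallest that 3 against 3 libraries allow. In FPKM, S100a6 was 2.73 ± 0.0263 times S100a4 in siPUM2 and 2.27 ± 0.0842 times S100a4 in NC (SD, n = 3).

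RefSeq start sites on GRCr8 were available for 7 of the 9 genes. The 250 bases before the start are shown for this neighbouring pair, which moved in opposite directions, and for Anxa2 and Anxa1, the annexin partners of S100 proteins that also moved in opposite directions. Capitals mark matches, on either strand, to a TATA box (TATAAA), a GC box (GGGCGG) or an AP-1 element (TGANTCA).
S100a4, GRCr8 chr2:178388279-178388528, plus strand: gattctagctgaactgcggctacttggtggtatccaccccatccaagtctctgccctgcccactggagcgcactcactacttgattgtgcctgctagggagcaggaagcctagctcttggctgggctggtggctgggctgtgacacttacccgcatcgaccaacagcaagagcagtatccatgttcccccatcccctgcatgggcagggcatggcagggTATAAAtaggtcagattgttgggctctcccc
S100a6, GRCr8 chr2:178398287-178398536, plus strand: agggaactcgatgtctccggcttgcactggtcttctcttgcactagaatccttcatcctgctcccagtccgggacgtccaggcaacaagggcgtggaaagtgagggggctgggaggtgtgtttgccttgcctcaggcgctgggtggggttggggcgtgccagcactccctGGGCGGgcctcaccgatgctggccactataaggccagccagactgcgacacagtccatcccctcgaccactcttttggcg
Anxa2, GRCr8 chr8:78986002-78986251, plus strand: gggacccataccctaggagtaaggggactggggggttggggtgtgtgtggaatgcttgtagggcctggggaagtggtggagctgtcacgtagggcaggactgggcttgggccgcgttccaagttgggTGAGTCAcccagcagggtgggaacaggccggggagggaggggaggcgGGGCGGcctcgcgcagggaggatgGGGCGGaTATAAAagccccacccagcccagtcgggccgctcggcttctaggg
Anxa1, GRCr8 chr1:227303733-227303982, minus strand: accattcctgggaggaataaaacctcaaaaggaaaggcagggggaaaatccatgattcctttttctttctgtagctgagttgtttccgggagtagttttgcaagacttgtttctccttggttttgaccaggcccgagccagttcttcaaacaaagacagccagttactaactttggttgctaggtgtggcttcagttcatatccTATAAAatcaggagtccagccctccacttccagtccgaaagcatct
TATAAA was present in the windows of S100a4 and Anxa2, which fell, and of Anxa1, which rose, and in 13.1% of 27457 RefSeq windows of the same length, taking 1 window per gene. Of the 7 windows, those of S100a6, S100a11, Anxa2, Anxa4 and Anxa5 held GGGCGG, as did 32.4% of all windows. TGANTCA was matched in the window of Anxa2 and in 6.36% of all windows. These matches describe the letters of the windows, and binding of any factor was not measured.

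S100a10, known as p11, has lost the ability to bind calcium and is held in an active shape, most of it in a complex with annexin A2 that binds plasminogen at the cell surface. It had 547, 543 and 554 CPM in siPUM2 1, 2 and 3, against 588, 590 and 545 CPM in NC 1, 2 and 3. NC 3 lay inside the siPUM2 range, so the groups overlapped. The log2 fold change was -0.07 ± 0.0278 (SE; adjusted p = 0.0712, edgeR). Without NC 3 it was -0.10 and past the threshold (adjusted p = 0.00343, edgeR), and without siPUM2 3 it was -0.08 (adjusted p = 0.0356, edgeR).

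Anxa2, the annexin of that complex, links membranes to actin filaments. It had 1320, 1313 and 1340 CPM in siPUM2 1, 2 and 3, against 1444, 1421 and 1367 CPM in NC 1, 2 and 3. The groups were apart, by the least margin in NC 3. The mean fell to 1324 ± 13.8 CPM in siPUM2, against 1411 ± 39.5 CPM in NC (SD, n = 3), a log2 fold change of -0.09 ± 0.0251 (SE; adjusted p = 0.00678, edgeR). Without NC 1 it no longer passed (adjusted p = 0.0544, edgeR).

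The balance within the S100a10 and Anxa2 pair was close to constant. The log2 ratio of S100a10 to Anxa2 counts was -1.27 in each siPUM2 library, against -1.30, -1.27 and -1.33 in NC 1, 2 and 3. The siPUM2 values lay inside the NC range. The difference was 0.02 ± 0.0171 (SE; two-sided exact permutation p = 0.4), and the ratio of their FPKM values was 1.06 ± 0.00144 in siPUM2 and 1.04 ± 0.0213 in NC (SD, n = 3). Without NC 2 the difference was 0.04 and without NC 3 it was 0.01.

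S100a11, or calgizzarin, is the S100 partner of annexin A1. It had 1372, 1361 and 1433 CPM in siPUM2 1, 2 and 3, against 1364, 1362 and 1340 CPM in NC 1, 2 and 3. siPUM2 2 lay within the NC range and siPUM2 3 above all others, so the groups overlapped, and the log2 fold change was 0.04 ± 0.0251 (SE; adjusted p = 0.326, edgeR). Without siPUM2 3 it was 0.0082 (adjusted p = 0.845, edgeR). A locus on chromosome 17 that the table describes as similar to S100a11 (RGD1563581) averaged 2.54 CPM in siPUM2 and 2.21 CPM in NC. How the counting shared reads between such copies is not stated, so the S100a11 level is uncertain to that extent.

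Anxa1, a glucocorticoid-induced annexin known for restraining inflammation, rose. It had 1251, 1223 and 1242 CPM in siPUM2 1, 2 and 3, against 1176, 1176 and 1125 CPM in NC 1, 2 and 3, with no overlap. The mean was 1239 ± 14.4 CPM in siPUM2 and 1159 ± 29.6 CPM in NC (SD, n = 3), a log2 fold change of 0.10 ± 0.0249 (SE; adjusted p = 0.00402, edgeR). The log2 ratio of S100a11 to Anxa1 counts was 0.13, 0.15 and 0.21 in siPUM2 1, 2 and 3, against 0.21, 0.21 and 0.25 in NC 1, 2 and 3. The groups were apart by a narrow margin, with siPUM2 3 next to NC 2, and the difference was -0.06 ± 0.0254 (SE; two-sided exact permutation p = 0.1).

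**Figure D3:**
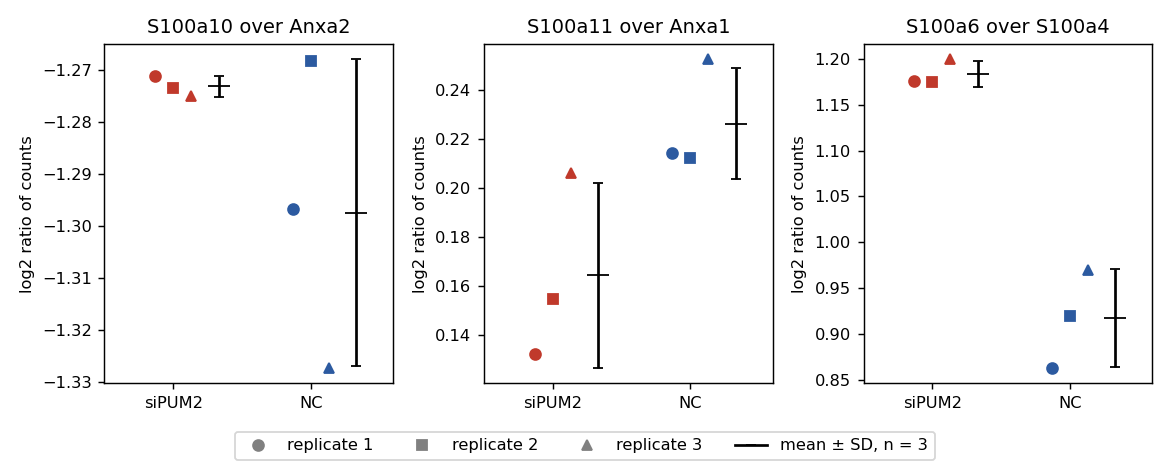
Log2 ratio of the counts of 2 genes within a library (vertical axes do not start at 0), by group, with symbols for the replicate number and black bars for the mean ± SD of 3 libraries. S100a10 over Anxa2 overlaps between the groups, S100a11 over Anxa1 is slightly lower in siPUM2, and S100a6 over S100a4 is higher in every siPUM2 library.

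Anxa6 was the one gene of the 9 called under all 20 settings tried. This large annexin, with a duplicated core, is abundant in heart and muscle and takes part in membrane repair. It had 758, 768 and 766 CPM in siPUM2 1, 2 and 3, against 688, 706 and 687 CPM in NC 1, 2 and 3. The lowest siPUM2 library was well above the highest NC library. The mean rose to 764 ± 5.29 CPM in siPUM2, against 694 ± 11.02 CPM in NC (SD, n = 3), a change of 10.2%, with a log2 fold change of 0.14 ± 0.0241 (SE; adjusted p = 5.29e-05, edgeR).

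Anxa5, which binds phosphatidylserine and serves as the probe for dying cells in flow cytometry, had 795, 797 and 806 CPM in siPUM2 1, 2 and 3, against 768, 784 and 756 CPM in NC 1, 2 and 3. The groups did not overlap, as held for 7 of the 9 genes, for 39.9% of all genes tested and for 69.4% of the 712 abundant ones. The log2 fold change of 0.06 ± 0.0242 (SE) did not pass (adjusted p = 0.0912, edgeR). Anxa4, an annexin of epithelial and secretory membranes, had 236, 241 and 228 CPM in siPUM2 1, 2 and 3, against 258, 248 and 244 CPM in NC 1, 2 and 3. All siPUM2 values were below all NC values, and the log2 fold change was -0.09 ± 0.0281 (SE; adjusted p = 0.0160, edgeR). Anxa4 no longer passed without NC 1 (adjusted p = 0.0943, edgeR) or without siPUM2 3 (adjusted p = 0.0796, edgeR).

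One control library weighed on these values. NC 3 had the lowest level within NC for all 9 genes, and for 49.9% of the 703 other genes at least as abundant as the lowest of the 9. siPUM2 3 had the highest level within siPUM2 for 6 of the 9 genes and for 54.3% of the 703. Each library's trend with gene length, at 700 bases, was -0.03, -0.01 and 0.02 on the log2 scale in siPUM2 1, 2 and 3, against 0.02, 0.03 and -0.02 in NC 1, 2 and 3. With that trend removed, S100a4 was at -0.17, S100a6 at 0.10, S100a10 at -0.05 and S100a11 at 0.05, and Anxa5 passed at 0.06 (adjusted p = 0.0379, edgeR). The part of either library's general level or of the length trend in the 9 differences was not tested further.

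**Figure D4:**
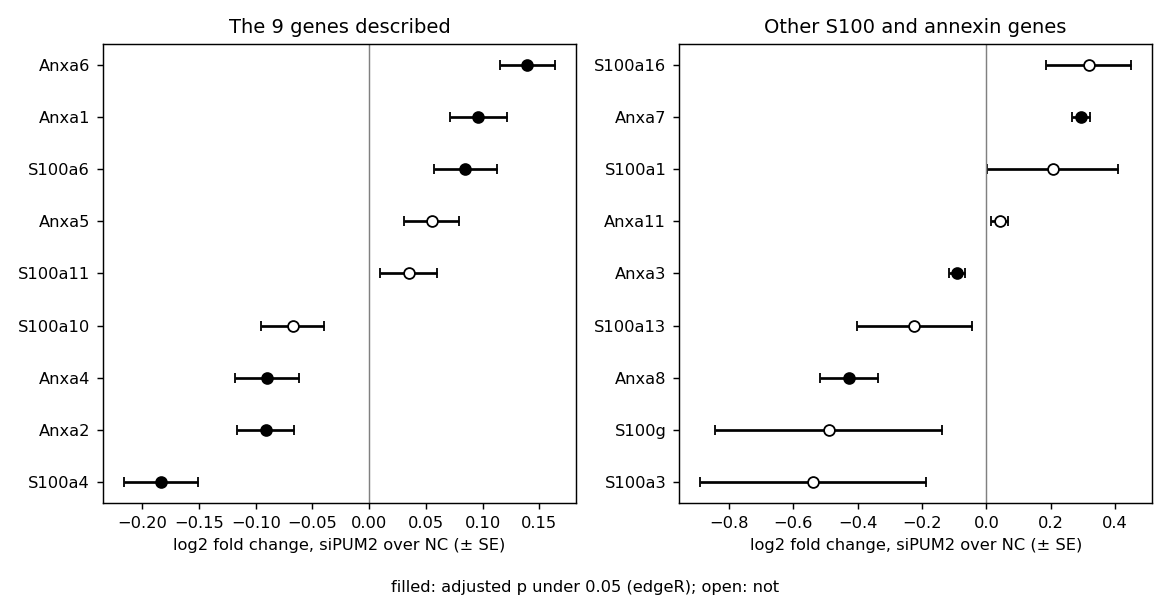
Log2 fold change of siPUM2 over NC (horizontal axis, ± SE) for the 9 genes and for the other S100 and annexin genes that passed the filter; filled points have an adjusted p under 0.05. Values of the 9 lie between -0.18 and 0.14, and among the others Anxa7, at 0.29, has a narrow error while the rare S100 genes have wide ones.

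The rest of both families was scarcer per length. The log2 fold changes of Anxa7, Anxa8 and the 5 other S100 genes tested were larger in size than those of the 9, but none of these S100 genes was called. Among 6 other annexin genes with a row, 4 were tested, 1 rose and 2 fell, where 15.1% of all genes tested were called higher and 13.3% lower. Anxa7, or synexin, which promotes fusion of calcium-bound membranes, had 137, 142 and 138 CPM in siPUM2 1, 2 and 3, against 115, 115 and 111 CPM in NC 1, 2 and 3, and rose by 0.29 ± 0.0281 on the log2 scale (SE; adjusted p = 4.29e-09, edgeR). Anxa8 fell to 8.17 ± 0.243 CPM in siPUM2, against 10.98 ± 0.881 CPM in NC (SD, n = 3; log2 fold change -0.43, adjusted p = 0.000571, edgeR). Anxa3 fell by 0.09 on the log2 scale (adjusted p = 0.00752, edgeR), and Anxa11 was at 0.04 and not called.

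Of 10 other S100 genes with a row, 5 were tested and none was called by edgeR, DESeq2 or limma voom; 1 had an unadjusted p under 0.05 in edgeR. The most abundant was S100a16, at 5.50 ± 0.399 CPM in siPUM2 and 4.42 ± 0.676 CPM in NC (SD, n = 3; log2 fold change 0.32, adjusted p = 0.0714, edgeR). S100a1, the S100 protein of adult heart muscle, was at 2.12 CPM in siPUM2 and 1.84 CPM in NC, S100a13 at 2.27 and 2.65 CPM, S100g at 0.574 and 0.812 CPM, and S100a3 at 0.521 and 0.755 CPM. At these depths a change of the size seen in the abundant members was not detectable. S100b, a glial S100, had 2 to 7 counts per library.

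Genes whose proteins bind S100 proteins moved in both directions. Of 21 entries, 16 had a row under their current symbol and all were tested: 3 rose, 3 fell and 10 were not called. Their median log2 fold change was 0.01. Over all genes tested 15.1% were called higher and 13.3% lower. Abundant genes were called more often, and a share among genes of a level like these binding partners was not computed. Myh9, the nonmuscle myosin heavy chain that S100A4 binds, fell to 2041 ± 25.3 CPM in siPUM2, against 2261 ± 44.0 CPM in NC (SD, n = 3; log2 fold change -0.15, adjusted p = 2.92e-05, edgeR). The actin-binding transgelin Tagln2 also fell by 0.15 on the log2 scale, and Sugt1, a chaperone adaptor bound by S100A6, fell by 0.11. Cacybp, the calcyclin-binding protein, rose by 0.08, as did the scaffold Ahnak (0.08), to which the S100A10 and annexin A2 complex binds, and the phosphatase Ppp5c (0.08).

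Several genes of calcium-triggered membrane repair rose. Of 24 tested, 10 rose, 3 fell and 11 were not called, with a median log2 fold change of 0.07. Over all genes tested 15.1% were called higher and 13.3% lower. Abundant genes were called more often, and a share among genes of a level like these was not computed. The ESCRT-III subunit Chmp4b, which pinches off damaged membrane, rose to 161 ± 4.49 CPM in siPUM2, against 136 ± 3.33 CPM in NC (SD, n = 3; log2 fold change 0.24, adjusted p = 1.85e-07, edgeR). Pdcd6, the calcium sensor that recruits ESCRT proteins, rose by 0.22 and the membrane-shaping ATPase Ehd2 by 0.20 on the log2 scale. The calpains Capn1 and Capn2 and their small subunit Capns1 rose by 0.10, 0.10 and 0.09, and Ehd1 (0.21), Esyt1 (0.14), Tsg101 (0.12) and Smpd1 (0.09) were the other genes that rose. The caveolar genes Cavin1 (-0.11) and Cavin4 (-0.43) fell, as did the ferlin Myof (-0.07), while the ferlin Dysf was at -0.04 and not called.

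Other EF-hand genes moved in both directions: of 24 tested, 11 rose, 4 fell and 9 were not called. Their median log2 fold change was 0.04. Over all genes tested 15.1% were called higher and 13.3% lower, and a share among genes of a like level was not computed here either. Ppp3r1, the regulatory subunit of calcineurin, rose to 191 ± 2.21 CPM in siPUM2, against 138 ± 0.780 CPM in NC (SD, n = 3; log2 fold change 0.46, adjusted p = 9.52e-14, edgeR). Calm2, which encodes calmodulin, rose by 0.23, and Calm3 was at -0.15 and called lower. Of the secretory-pathway proteins, Calu was at -0.17 and called lower, while Rcn2 (0.21), Nucb2 (0.16), Rcn3 (0.12) and Nucb1 (0.09) rose. Rcn1 (0.004) and Sdf4 (0.07) were not called. Among 7 genes tested of phospholipase A2 and prostaglandin synthesis, a pathway that annexin A1 is known to restrain, 2 rose and 2 fell, beside the same shares over all genes: Ptgis (0.38) and Pla2g4a (0.16) were higher, and Ptgs1 (-0.35) and Ptges3 (-0.10) lower.

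S100a4 is used as a marker of fibroblasts and is also made by leukocytes. Of 5 fibroblast markers tested, Thy1 (0.31) and Ddr2 (0.18) rose, Col3a1 (-0.10) and Col1a1 (-0.08) fell and Col1a2 was not called, and the list's summed level was 18201 to 18640 CPM in siPUM2 and 18698 to 18761 CPM in NC. Pdgfra, Dcn and Lum were under 1 CPM. Of the leukocyte markers only Cd14 exceeded 1 CPM. Cd68 averaged 0.644 CPM in siPUM2 and 0.819 CPM in NC, and Lyz2, Itgam and Csf1r were lower still. Ptprc, Adgre1, Aif1 and Cd163 were looked for and had no row under those symbols. Endothelial markers summed to 2.27 to 2.64 CPM in siPUM2 and 2.25 to 2.38 CPM in NC, and Schwann or neural markers to 1.46 to 1.82 CPM and 1.32 to 1.597 CPM. Of the epithelial markers Krt8 was the one above 1 CPM and was lower in siPUM2 (log2 fold change -0.27). The part of any of these in the S100a4 difference was not tested.

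By likeness of pattern, the genes closest to S100a4 over the 6 libraries were Ssr2 (Pearson's r = 0.998), Ndufs8 (0.998), Klhdc4 (0.995), H3f3a (0.994) and Mrpl15 (0.993), out of 8716 genes with a mean of at least 10 CPM, 81 of which had an r above 0.95. These values describe shared levels over libraries that fall into 2 groups and share their depth. Of the 5, Ndufs8, Klhdc4 and H3f3a were called lower in siPUM2.

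**Figure D5:**
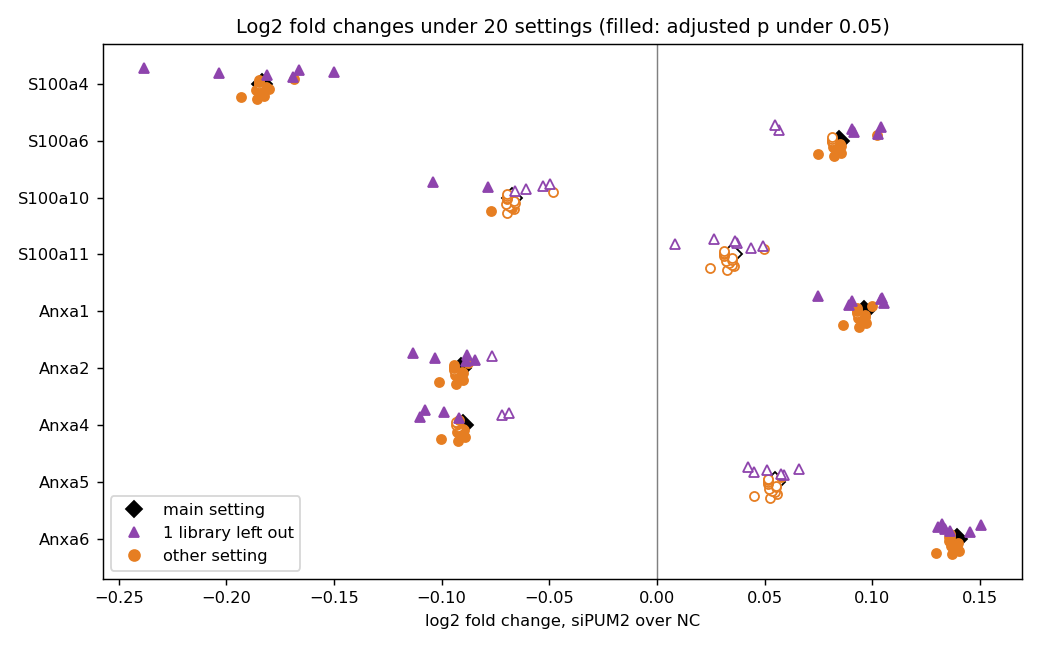
Log2 fold change of siPUM2 over NC (horizontal axis) of each of the 9 genes under 20 settings; black diamonds are the values reported, triangles leave out 1 library, circles are other settings, and filled points have an adjusted p under 0.05. No gene crosses 0 under any setting, Anxa6 is filled throughout and S100a11 in none.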

How the data were processed

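Polyadenylated RNA was captured and made into strand-specific paired-end libraries, per the labels' protocols. HISAT2, DESeq2 and the build mRatBN7.2 are named in the submitters' processing notes. Their versions, the annotation, the counter and its use of strand were not given in the sources used here. Deposited by the authors were whole-number counts per gene and FPKM values (per length and library size, rounded).

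Groups came from the titles. Counts were tested with edgeR 4.0.16 (glmQLFit, glmQLFTest; R 4.3.3), TMM scaling, filterByExpr and group as the only term; 6840 genes with 0.0465% of the counts were filtered out. The SE is the log2 fold change over the root of F. The script was tested on simulated data. Alternatives used other scalings and filters, DESeq2 1.42.0, limma 3.58.1 (voom, or log2(FPKM + 1 or 0.1)), a replicate block, each library left out, and removal of the length trend. Libraries of a group differed from each other by more than counting noise, at 2.04 to 3.65 times the chi-square expected, so none was a copy.

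The 9 genes and the lists were chosen with earlier results of these data known. From each list the 3 called genes with the lowest p were to be named, further called genes as counted, and every tested S100 and annexin gene. Dysf, S100a5, S100b, Rcn1, Rcn3, Nucb1, Nucb2 and Sdf4 were named after their values were seen. Promoter sequences are from RefSeq (GRCr8), used for sequence and gene order only.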

Additional observations from a re-analysis of the deposited data

How the results depend on the processing

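All 9 log2 fold changes kept their direction under the 19 alternatives. Anxa6 kept its call in all of them, Anxa1 and S100a4 lost theirs in 2, Anxa2 in 3, Anxa4 in 5 and S100a6 in 6, while S100a10 gained one in 4 and Anxa5 in 1. On FPKM without a filter, where 19535 genes were tested, 2246 genes were called with a pseudocount of 1 and 2296 with 0.1, against 3692 in the count test, and of the 9 genes 1 was called higher and 0 lower (limma; the gene called was Anxa6; adjusted p of S100a4 0.0700 and 0.0623). With each library left out in turn, 3004 to 3538 genes were called, 2 to 3 of the 9 higher and 1 to 4 lower; the lowest of these counts of lower genes came without NC 1, when only S100a4 kept its call. The ratio differences then ranged over 0.01 to 0.04 (S100a10 over Anxa2), -0.08 to -0.05 (S100a11 over Anxa1) and 0.24 to 0.29 (S100a6 over S100a4). At an adjusted p under 0.01, 2 of the 9 were higher and 2 lower. With the replicate number as a block, 3731 genes were called, 3 of the 9 higher and 3 lower, and no call among the 9 changed; the paired ratio differences were the same, with exact p of 0.5, 0.25 and 0.25, where 0.25 is the smallest possible. Deviations of same-numbered libraries correlated at 0.007, 0.02 and 0.007 across genes. No shared effect of the replicate number was visible, which cannot tell whether same-numbered samples were handled together.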
